A study of Mus musculus with 9 samples.

Results

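The transcripts described here are 10 markers of the endothelium, the cell layer that lines blood vessels: Cdh5, Pecam1, Cldn5, Kdr, Flt1, Tek, Eng, Ramp2, Egfl7 and Emcn. They were chosen by symbol as a reference for the capillary content of the muscle, and each symbol matched 1 of the 23231 genes in the deposited expression table. The tissue was the tibialis anterior, a fast muscle of the lower leg, from C57BL/6 mice 6 months old. Electroporation had carried small interfering RNA (siRNA), which lowers the level of a chosen transcript, into this muscle. Of the 9 RNA-seq libraries, 3 had siRNA construct 5 against Ubr4, 3 had siRNA construct 7 against Ubr4 and 3 had a non-targeting control siRNA, so the controls had been electroporated too. Ubr4 encodes a large E3 ubiquitin ligase, and the series concerns ubiquitin ligases that regulate the size of muscle fibres. The labels do not say that the 3 libraries of a group came from separate animals, so p-values measure the spread between these libraries.

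In skeletal muscle each fibre is surrounded by capillaries, and most of their endothelial cells are at rest. Vascular endothelial growth factor made by the fibres acts on endothelial receptor kinases and maintains the capillary bed, while angiopoietins acting on Tek keep vessels stable. VE-cadherin (Cdh5) and claudin 5 (Cldn5) seal the contacts between neighbouring endothelial cells. Muscle fibres make little or none of these transcripts, so in RNA from whole muscle their level reflects both how many endothelial cells there are and how much of each RNA a cell holds. Those quantities cannot be told apart in these libraries.

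Endothelial genes are known for promoters with binding sites of ETS family transcription factors, whose core is GGAA. The RefSeq promoters (build GRCm38.p6, 250 bases before to 50 bases after the start) held 9 promoters of 7 members. The entries of Cdh5, Pecam1 and Ramp2 were missing. The longer form AGGAAG, which contains GGAA, was searched on both strands. It lay in 5 of the 9 promoters, belonging to Flt1, Egfl7, Eng and Emcn, against 35.4% of all 32851 promoters of that length. The promoters of Kdr, Tek and Cldn5 and 1 of the 3 of Egfl7 held no match, which says only that these letters are not in this window. GGAA alone lay in 8 of the 9 promoters and in 96.0% of all promoters. Printed here, 5′ to 3′ on the gene's strand, are the promoters of Emcn and Kdr, whose levels moved most closely with the other members among those with an entry, and of Flt1, whose level did not. Capitals mark AGGAAG or its reverse complement.
Emcn, chr3:137340828-137341127, plus strand: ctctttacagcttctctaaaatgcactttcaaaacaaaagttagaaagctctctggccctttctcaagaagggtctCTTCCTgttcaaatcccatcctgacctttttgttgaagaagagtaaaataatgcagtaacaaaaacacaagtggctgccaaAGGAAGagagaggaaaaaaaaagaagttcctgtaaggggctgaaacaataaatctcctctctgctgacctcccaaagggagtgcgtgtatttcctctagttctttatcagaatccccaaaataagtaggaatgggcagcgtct
Kdr, chr5:75978406-75978705, minus strand: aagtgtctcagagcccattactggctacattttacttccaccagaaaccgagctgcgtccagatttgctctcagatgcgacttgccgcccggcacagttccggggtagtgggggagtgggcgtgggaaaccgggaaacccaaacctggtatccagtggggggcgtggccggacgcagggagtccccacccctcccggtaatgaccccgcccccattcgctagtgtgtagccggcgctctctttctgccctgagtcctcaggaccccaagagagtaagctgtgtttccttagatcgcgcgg
Flt1, chr5:147725962-147726261, minus strand: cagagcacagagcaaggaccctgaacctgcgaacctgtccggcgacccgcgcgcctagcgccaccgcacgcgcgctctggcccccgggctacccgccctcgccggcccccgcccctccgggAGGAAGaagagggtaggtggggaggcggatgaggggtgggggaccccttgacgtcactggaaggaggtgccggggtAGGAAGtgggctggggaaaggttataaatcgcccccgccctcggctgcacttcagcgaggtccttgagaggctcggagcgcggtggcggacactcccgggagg
Emcn and Flt1 each held 2 matches and Kdr none. A match describes the sequence only, and binding was not measured.

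Values were FPKM, which divides the fragments counted on a gene by its length and by the depth of the library, so that genes of different length can be compared. Depth recovered from the spacing of low FPKM values ranged from 29312121 to 45563538 reads per library, with a median of 32317622. At that depth a member was covered by 369 reads at the least (Cldn5 in construct 7 replicate 1, exact Poisson 95% interval 332.3 to 408.6) and by 5985 at the most (Cdh5 in construct 5 replicate 2). The counting half-width of a single value was therefore between 2.54% and 10.3%, and it covers counting error only. Ubr4 was measured first as a check of the labels. Its level was 9.06 ± 1.22 FPKM in the controls, 3.38 ± 0.57 with construct 5 (37.3% of control) and 2.63 ± 0.41 with construct 7 (29.1%; SD, n = 3 each). By exact permutation of the libraries (two-sided) each construct reached p = 0.1, the smallest value 3 against 3 libraries allow, with p = 0.02381 for all 6 libraries with an siRNA against Ubr4 compared with the 3 controls.

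All 10 members were detected in all 9 libraries and all passed the filter of a mean of at least 1 FPKM that left 10794 genes for testing. Their mean levels ran from 3.19 FPKM for Emcn to 27.9 FPKM for Cdh5. Fibre transcripts stood far above them: Acta1, skeletal muscle actin, averaged 18137 FPKM and Ckm, muscle creatine kinase, 13058 FPKM. The 10 values summed to between 106.5 and 138.6 FPKM per library.

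**Figure D1:**
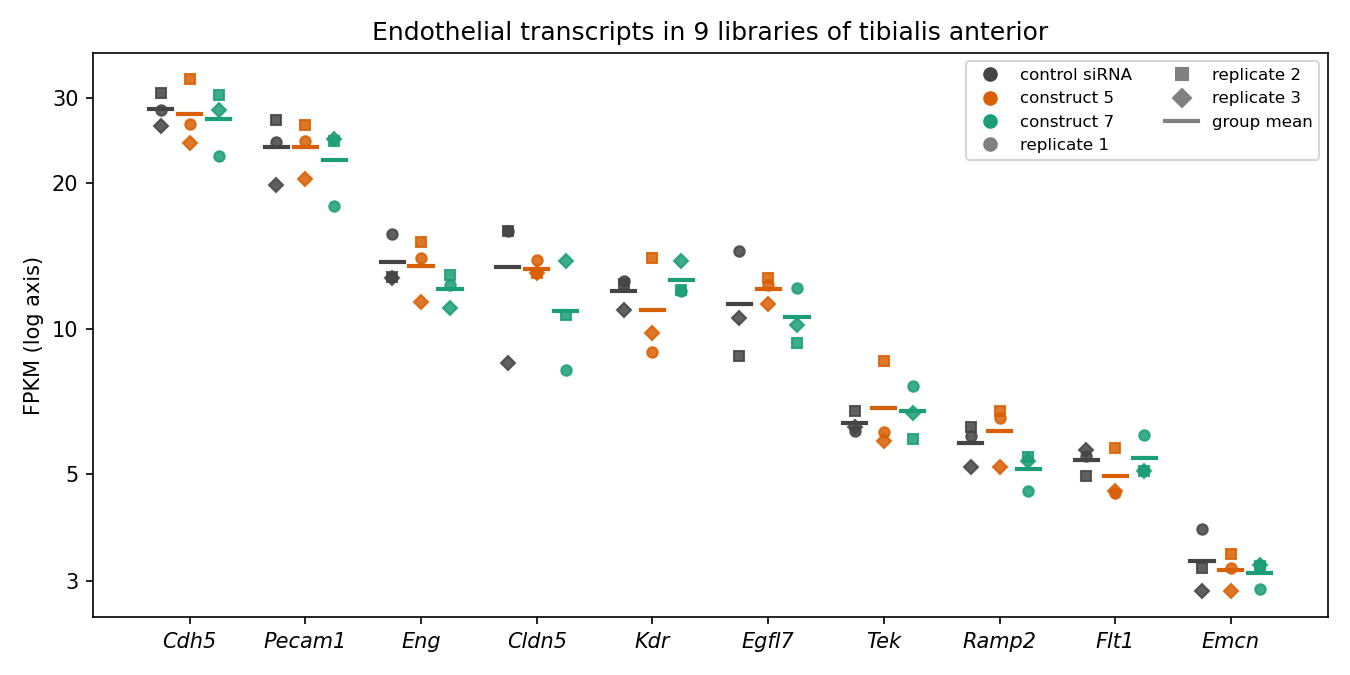
FPKM of the 10 endothelial transcripts (log axis) in each of the 9 libraries, ordered by mean level. Colour gives the siRNA group, the symbol gives the replicate and the bar gives the group mean; for every transcript the points of the 3 groups overlap, and Emcn lies lowest with 2.86 to 3.85 FPKM.

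The junction proteins included the most abundant members. Cdh5, the cadherin of endothelial adherens junctions, stood at 28.4, 30.8 and 26.3 FPKM in control libraries 1, 2 and 3, at 26.5, 33.0 and 24.2 with construct 5 and at 22.8, 30.5 and 28.3 with construct 7. Its highest value was in construct 5 replicate 2 and its lowest in construct 7 replicate 1, and the 3 groups overlapped. Group means were 28.5 ± 2.23, 27.9 ± 4.52 and 27.2 ± 3.97 FPKM. Pecam1 encodes the adhesion molecule CD31, by which endothelial cells bind to each other and to leukocytes. Its values were 24.4, 27.0 and 19.8 FPKM in the controls, 24.5, 26.4 and 20.4 with construct 5 and 18.0, 24.5 and 24.7 with construct 7. Control replicate 3, construct 5 replicate 3 and construct 7 replicate 1 were the low libraries of their groups, and the groups overlapped. Cldn5 encodes the main tight junction claudin of endothelium. It stood at 15.9, 15.9 and 8.51 FPKM in the controls, at 13.8, 13.1 and 13.1 with construct 5 and at 8.19, 10.7 and 13.8 with construct 7. It was the most variable member, with a coefficient of variation of 22.8% over the 9 libraries, of which counting gives 4.13%. Control replicate 3 and construct 7 replicate 1 were its low libraries, while the 3 construct 5 libraries lay close together, and the groups overlapped.

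The receptor kinases stood at middle and low levels. Kdr, the receptor that carries most of the growth signal of vascular endothelial growth factor, had 12.6, 12.4 and 10.9 FPKM in the controls, 8.96, 14.0 and 9.79 with construct 5 and 12.0, 12.1 and 13.8 with construct 7. Construct 5 held both its lowest library, replicate 1, and its highest, replicate 2. The group means were 12.0 ± 0.90, 10.9 ± 2.70 and 12.6 ± 1.05 FPKM. Flt1, the receptor that binds the same factor tightly and limits its action on Kdr, had 5.44, 4.96 and 5.62 FPKM in the controls, 4.58, 5.66 and 4.62 with construct 5 and 6.02, 5.08 and 5.08 with construct 7. It was highest in construct 7 replicate 1, the library in which 4 other members were lowest, and the groups overlapped. Tek, the receptor of the angiopoietins, had 6.14, 6.74 and 6.25 FPKM in the controls, 6.12, 8.57 and 5.86 with construct 5 and 7.62, 5.91 and 6.68 with construct 7. Its value in construct 5 replicate 2 exceeded those of the other 8 libraries, and the remaining construct 5 libraries lay below all 3 controls.

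Of the accessory receptors, Eng encodes endoglin, a co-receptor of endothelial cells for ligands of the BMP and TGF-beta family. It stood at 15.7, 12.8 and 12.7 FPKM in the controls, at 14.0, 15.1 and 11.4 with construct 5 and at 12.3, 12.9 and 11.03 with construct 7. Control replicate 1 was its highest library and construct 7 replicate 3 its lowest, with overlapping groups. Ramp2 encodes the protein that makes the receptor Calcrl respond to adrenomedullin. It had 5.98, 6.25 and 5.18 FPKM in the controls, 6.54, 6.74 and 5.17 with construct 5 and 4.61, 5.42 and 5.33 with construct 7. The first and second construct 5 libraries lay above every other library, while the third lay next to the lowest control.

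The remaining members are a secreted protein and a surface mucin. Egfl7 encodes a matrix-bound protein secreted by endothelium and is the host gene of a microRNA. It had 14.5, 8.77 and 10.5 FPKM in the controls, 12.3, 12.7 and 11.3 with construct 5 and 12.2, 9.36 and 10.2 with construct 7. Both its highest and its lowest library were controls, so the construct libraries lay inside the control range. Emcn encodes endomucin, a sialomucin of capillary and venous endothelium. It had 3.85, 3.19 and 2.86 FPKM in the controls, 3.20, 3.41 and 2.87 with construct 5 and 2.88, 3.23 and 3.24 with construct 7, and its construct values also lay inside the control range. Egfl7 overlaps Agpat2 (1.98 FPKM) and Eng overlaps Fpgs (1.88 FPKM) on the opposite strand in the GENCODE annotation. On the same strand, Ramp2 overlaps Vps25 (0.053 FPKM) and Egfl7 overlaps Gm20532, which had no deposited value. Whether counting used strand is not stated in the sources used here, and strand would not separate the same-strand pairs. A part of the Egfl7, Eng or Ramp2 values could therefore come from a neighbour, or be lost to it, which was not tested.

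By mean level the members fell into 4 tiers, set by their order and not by a test. Cdh5 (27.9 FPKM) and Pecam1 (23.3) were highest, and Cdh5 exceeded Pecam1 in 9 of 9 libraries although their ranges overlapped. Eng (13.1), Cldn5 (12.6), Kdr (11.8) and Egfl7 (11.3) followed, and no neighbour in that tier was higher than the next in more than 5 of 9 libraries. Tek (6.65), Ramp2 (5.69) and Flt1 (5.23) formed the next tier, with Tek above Ramp2 in 8 libraries and Ramp2 above Flt1 in 7. Emcn (3.19) was lowest. For neighbours in the order that stood in different tiers the ranges did not overlap: the lowest Pecam1 value was above the highest Eng value, the lowest Egfl7 value of 8.77 FPKM was just above the highest Tek value of 8.57 FPKM, and the lowest Flt1 value was above the highest Emcn value. Cldn5 crossed its tier, since its lowest value of 8.19 FPKM lay below the highest Tek value.

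With construct 5 none of the 10 members differed from the controls beyond the spread between libraries. With limma on log2(FPKM + 1) over all 9 libraries and Benjamini-Hochberg adjustment over all tested genes, 0 of 10 members passed an adjusted p of 0.05, where 5.27% of all tested genes did. At an unadjusted p under 0.05 the count was again 0 of 10, against 31.9% of all tested genes. No member had groups that did not overlap, against 38.2% of all tested genes. Differences ran from -0.14 for Kdr to 0.12 for Egfl7 on the log2 scale, 5 below and 5 above zero, with limma adjusted p between 0.496 and 0.986. The mean difference of the 10 members was -0.0044, beside a within-group SD of that mean over libraries of 0.121. The 95% intervals, as deposited and in folds of FPKM + 1, limit what these libraries could have missed. Cldn5 allows a change from 0.717-fold to 1.47-fold, and the other 9 lie within 0.727-fold and 1.38-fold. Folds on this scale understate the change of low members. Kdr, the member that differed most, gave p = 0.5 in an exact two-sided permutation test. Control replicate 1, the highest Egfl7 library, bears on that member: without it the Egfl7 difference was 0.30, with an unadjusted p of 0.0378 and a limma adjusted p of 0.200.

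These values need to be read against all genes, because the construct 5 libraries were shifted as a whole. The median tested gene was 0.13 higher than in the controls on the log2 scale, and 504 of the 569 genes called with construct 5 were higher. All 10 members lay below that median. Rescaling the libraries by the median of gene ratios moved the median gene to 0.01 and left 78 calls, 14 higher and 64 lower. After that rescaling all 10 members lay below zero with construct 5, with a mean of -0.14 and none called by limma. Flt1 was then -0.22 with an unadjusted p of 0.0406 and a limma adjusted p of 0.198. Over 22 alternative settings the unadjusted p of Flt1 with construct 5 was under 0.05 in 4, with a lowest limma adjusted p of 0.127. As deposited, then, the members were level with the controls, and relative to the median gene they lay lower. Neither form passed the test, and which scaling is right was not tested.

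Construct 7 gave the same count. None of the 10 members passed the limma test, where 0.0556% of all tested genes did, none had an unadjusted p under 0.05 (9.47% of all tested genes) and none had groups without overlap (16.8%). The differences ran from -0.26 for Cldn5 to 0.07 for Kdr, with 7 of 10 below zero, a mean of -0.07 and limma adjusted p from 0.712 to 0.989. Cldn5 stood at 10.9 ± 2.83 FPKM against 13.4 ± 4.27 in the controls, and an exact permutation test gave p = 0.5. Eng was 0.17 lower and Ramp2 0.15 lower on the log2 scale, each with a limma adjusted p of 0.712. As deposited, the intervals span 0.585-fold to 1.20-fold for Cldn5 and 0.742-fold to 1.31-fold for the other 9. The median tested gene moved by 0.02 here, and after the median-ratio rescaling 8 of 10 members lay below zero. Control replicate 3 bears on the Cldn5 value: without it the difference was -0.53, with an unadjusted p of 0.0122 and a limma adjusted p of 0.515.

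When both constructs were averaged and set against the controls, 0 of 10 members were called (0.00926% of all tested genes were, which is Ubr4 among 10794), 0 of 10 had an unadjusted p under 0.05 (19.1%) and 0 of 10 had groups without overlap (9.49%). The differences lay between -0.11 for Cldn5 and 0.07 for Tek, and limma adjusted p between 0.614 and 0.927. Without control replicate 3 the Cldn5 difference was -0.39, with an unadjusted p of 0.0315 and a limma adjusted p of 0.274. The exact permutation p of Cldn5 was 0.714286, where the smallest possible was 0.02381. With 6 libraries against 3 the intervals as deposited narrowed to 0.680-fold to 1.26-fold over all 10 members and to 0.791-fold to 1.26-fold without Cldn5. After median-ratio scaling the intervals ran from 0.633-fold to 1.21-fold, and from 0.746-fold to 1.19-fold without Cldn5. Both single-construct comparisons and this one use the same 3 controls, so they are not independent of each other.

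Construct 7 was also compared with construct 5, which leaves the controls out. Again 0 of 10 members were called, where 1.22% of all tested genes were, 0 of 10 had an unadjusted p under 0.05 (23.1%) and 0 of 10 had groups without overlap (25.4%). Ramp2 had the smallest p: it was 5.12 ± 0.44 FPKM with construct 7 and 6.15 ± 0.86 with construct 5, a log2 difference of -0.22 with an unadjusted p of 0.0675 and a limma adjusted p of 0.247. Cldn5 had the largest difference, -0.29, with p = 0.3 by an exact permutation test. Kdr was the member that differed most in the other direction, at 0.21 with an adjusted p of 0.379. One library moved that value by over 1.5 times: without construct 5 replicate 2, Kdr was 0.39 higher with construct 7, with an unadjusted p of 0.0031 and a limma adjusted p of 0.0964. Against the controls Kdr was then 0.32 lower with construct 5, with a limma adjusted p of 0.0977. The voom test on recovered reads likewise called 0 of 10 members and gave 0 of 10 with an unadjusted p under 0.05 in each of the 4 comparisons. With median-ratio scaling, voom gave Flt1 an unadjusted p of 0.0327 with construct 5 (adjusted p = 0.182). Between constructs that voom test gave unadjusted p of 0.0483 for Kdr and 0.0413 for Flt1 (adjusted p = 0.273 and 0.255).

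**Figure D2:**
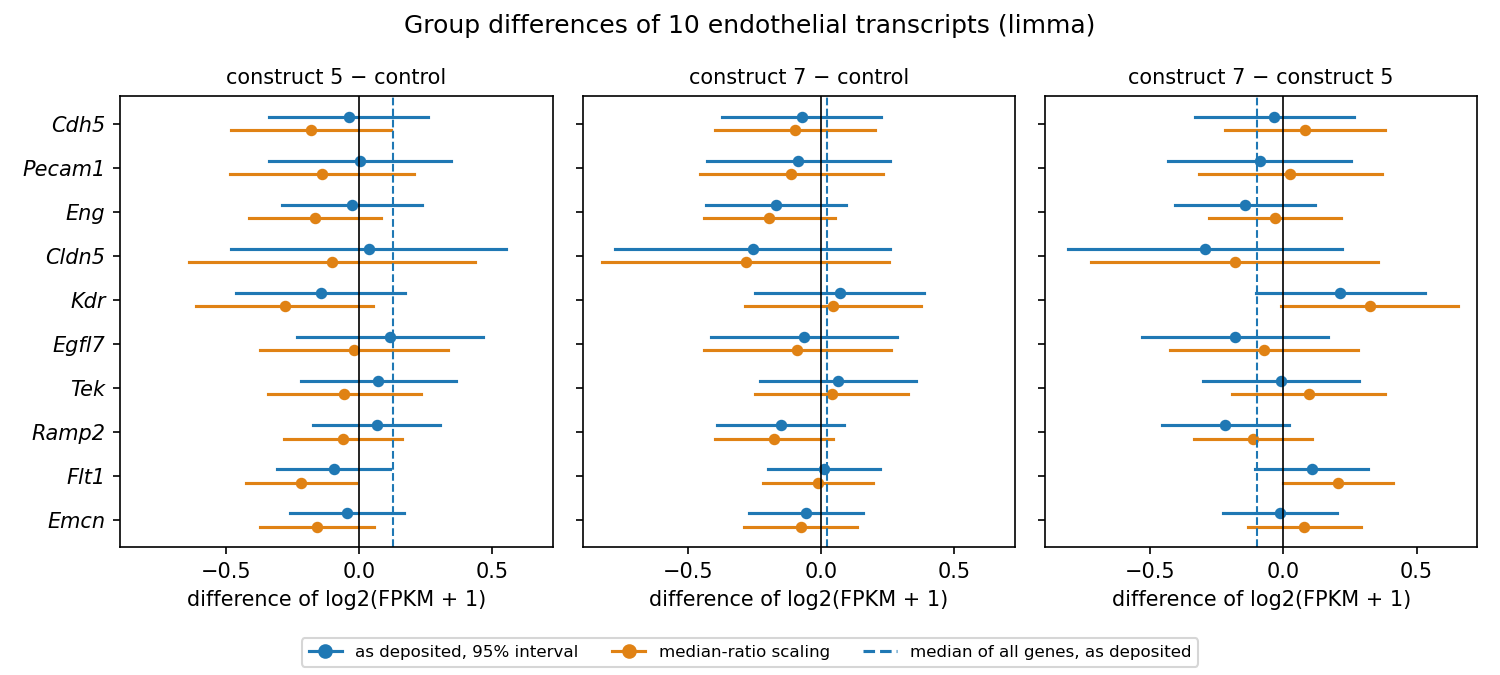
Difference of log2(FPKM + 1) between groups for the 10 transcripts, with 95% intervals from limma, as deposited (blue) and after median-ratio scaling (orange); the dashed line is the median of all 10794 tested genes as deposited. As deposited every interval includes zero, the members lie left of the dashed line with construct 5, and the Flt1 interval after rescaling lies just below zero with construct 5.

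The spread between libraries of a group exceeded the differences between the group means of the summed members. In construct 5 replicate 2 all 10 members lay above their own mean over the 9 libraries, and in control replicate 1 all but 1 did. In control replicate 3, by contrast, 9 of 10 lay below their mean, and in construct 5 replicate 3 it was 8 of 10. The summed level was 132.8, 128.8 and 108.7 FPKM in the controls, 120.5, 138.6 and 108.6 with construct 5 and 106.5, 119.6 and 122.2 with construct 7. Each group thus held a library between 106.5 and 108.7 FPKM and another of 122.2 FPKM or more, and the group sums were 123.5 ± 12.9, 122.6 ± 15.1 and 116.1 ± 8.42 FPKM. With construct 5 the sum was 99.3% of control and with construct 7 it was 94.0%. All 10 members had a within-group SD above that of the median tested gene, with a median of 0.18 against 0.12 on the log2 scale. Counting error was smaller: the coefficient of variation over libraries was 9.38% to 22.8% by member, and that of counting was 1.63% to 4.13%. For Emcn, the lowest member, counting gave 4.12% beside 9.86%.

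**Figure D3:**
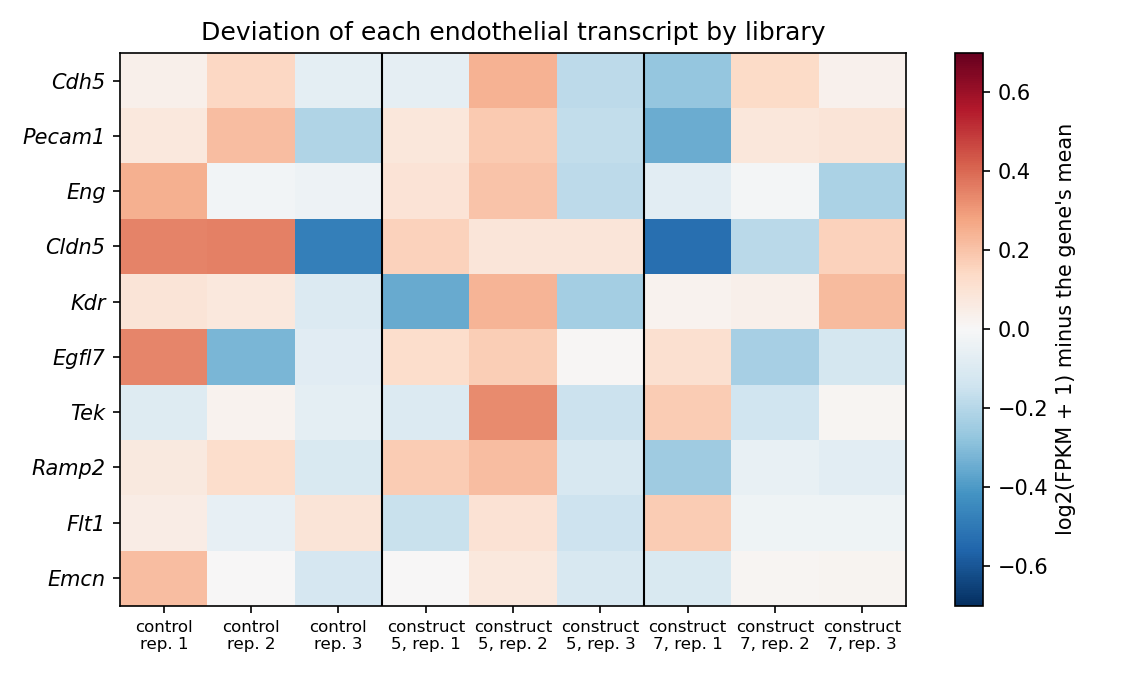
Deviation of log2(FPKM + 1) from the mean over 9 libraries for each transcript (rows, by mean level) in each library (columns, by group). Construct 5 replicate 2 is red or pale red in all 10 rows, control replicate 3 is blue in 9 of 10, and Cldn5 has the strongest colours.

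With group means removed, the members tended to move together over the 9 libraries. The median Pearson r over their 45 pairs was 0.45, with 36 pairs above 0 and 18 above 0.5, and it was 0.41 after median-ratio scaling. These correlations share libraries, depth and normalization, and are given as a description, without the r of pairs of other genes to read them against. The highest pair was Pecam1 with Ramp2 at 0.93, followed by Cdh5 with Pecam1 at 0.90 and Cdh5 with Ramp2 at 0.85. Emcn followed the mean of the other 9 members most closely (r = 0.87, Spearman rho = 0.92), then Ramp2 (0.80), Kdr (0.73), Pecam1 and Cdh5 (0.70 each) and Eng (0.62). Cldn5 (0.41) and Tek (0.38) followed it less. Flt1 and Egfl7 did not (0.13 each), while Flt1 and Tek, both receptor kinases, correlated with each other at 0.79.

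Outside the list, the 10 transcripts of at least 5 FPKM with the highest r to the mean of the members, group means removed and over 9 libraries, were Map3k11 (0.98), Pttg1ip (0.98), C1qtnf9 (0.97), Esam (0.96), Aqp1 (0.96), Ly6a (0.95), Tpm3 (0.95), Rasip1 (0.95), Asna1 (0.94) and Htra2 (0.94). Esam, an endothelial adhesion molecule, and Rasip1, an endothelial regulator of Ras-family GTPases, stood on the list of other endothelial markers, and Aqp1, the water channel, on the capillary list. Over all 10784 other tested genes the median r was 0.034 and 17.6% exceeded 0.5. Of 20 other endothelial markers 11 exceeded 0.5, with a median of 0.61. The medians were 0.71 for 6 capillary markers, 0.63 for 12 macrophage markers, 0.57 for 8 fibroblast markers, 0.47 for 10 markers of the mural cells that wrap vessels and -0.57 for 10 fibre genes. Inside the groups, transcripts of several non-fibre cell types thus varied with the members, and most fibre transcripts varied against them.

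**Figure D4:**
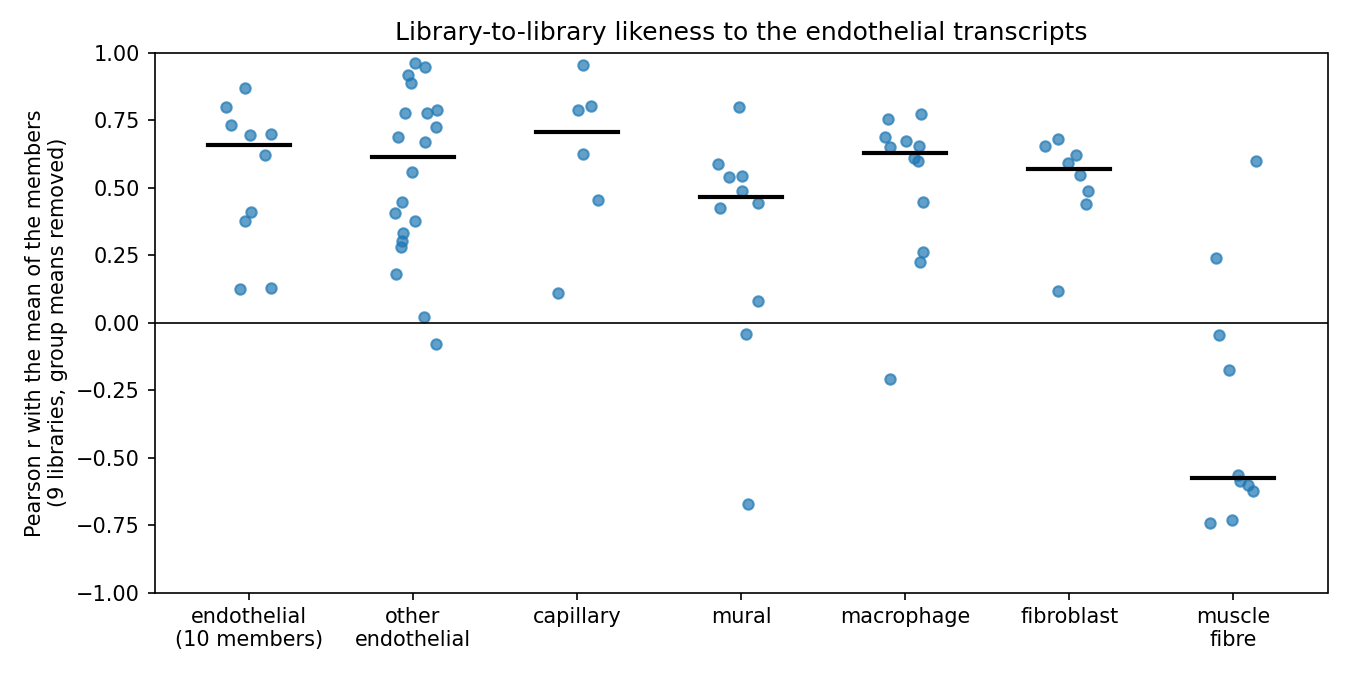
Pearson r of each transcript with the mean of the 10 members over 9 libraries, group means removed, by marker list; for the members themselves r is with the mean of the other 9, and the bar is the median. The other endothelial markers have a median of 0.61 and the fibre genes one of -0.57, with 1 fibre gene above 0.5.

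The wider vascular lists held 0 genes called by limma in any of the 4 comparisons. Among the 20 other endothelial markers the median difference was -0.01 with construct 5 and -0.07 with construct 7, with 0 of 20 at an unadjusted p under 0.05 in both. Cyyr1 was the only one whose construct 5 libraries did not overlap with the controls, against 38.2% of all tested genes (2.60 ± 0.18 and 2.22 ± 0.12 FPKM, limma adjusted p = 0.253). Ly6c1, an endothelial surface antigen, was the most abundant of them, with 68.3 ± 9.8 FPKM in the controls, 73.2 ± 8.3 with construct 5 and 60.4 ± 6.4 with construct 7. After median-ratio scaling 18 of the 20 lay below zero with construct 5, as all 10 members did. The 6 tested capillary markers had medians of -0.04 and -0.04. Fabp4, a fatty acid carrier made by capillary endothelium and by fat cells, was 275 ± 33, 290 ± 16 and 263 ± 21 FPKM in the 3 groups, and Aqp1 was 141 ± 15, 132 ± 16 and 138 ± 0.4 FPKM.

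Genes that act with the members also had 0 calls, with some differences that did not pass the adjusted threshold. Of the vascular endothelial growth factor pathway 8 of 10 genes were tested and 0 called. Vegfa, the ligand of Kdr and Flt1, stood at 54.3 ± 16 FPKM in the controls, 57.4 ± 2.5 with construct 5 and 57.3 ± 13 with construct 7. Around Tek, 5 of 7 genes were tested and 0 called, and Tie1, its partner receptor, was 11.6 ± 0.61, 11.4 ± 1.4 and 11.2 ± 0.36 FPKM. Dok2, an adaptor that binds activated Tek and is also made by blood cells, was 0.864 ± 0.11, 1.76 ± 0.91 and 0.719 ± 0.14 FPKM. Its construct 5 libraries did not overlap with either other group, with log2 differences of 0.52 from the controls (unadjusted p = 0.0221) and -0.64 for construct 7 against construct 5 (unadjusted p = 0.00789), each with a limma adjusted p of 0.107. Groups without overlap made up 38.2% and 25.4% of all tested genes in these comparisons. Dok2 passed the filter of 1 FPKM only through construct 5, whose libraries held 1.41, 2.79 and 1.08 FPKM. Its differences and p-values are therefore given as a description only. For Ramp2, its receptor Calcrl was 1.93 ± 0.03, 2.00 ± 0.63 and 2.23 ± 0.51 FPKM, and 0 of 4 tested genes of adrenomedullin signalling were called. Of 14 genes around endoglin 0 were called. With construct 5, 13 of them lay above zero and 10 above the median of all genes, and 5 had an unadjusted p under 0.05, a share near the 31.9% of all tested genes. Tgfbr1, a signalling receptor of the TGF-beta family, was 3.25 ± 0.43 FPKM in the controls, 4.64 ± 0.74 with construct 5 and 4.49 ± 0.39 with construct 7. Its log2 differences from the controls were 0.40 and 0.37 (limma adjusted p = 0.0625 and 0.365). Junction partners were called in 0 of 11 tested genes. Among them Jup, plakoglobin, was 11.8 ± 0.19, 15.7 ± 2.1 and 14.9 ± 1.3 FPKM, with log2 differences of 0.37 and 0.31 (limma adjusted p = 0.0562 and 0.365). For both genes the libraries of each construct lay above all 3 controls, and both are also made by other cells of muscle. Among all tested genes 38.2% had groups without overlap with construct 5 and 16.8% with construct 7. For the libraries of both constructs together against the controls that share was 9.49%.

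Transcription factors of endothelium had 13 of 15 genes tested and 0 called, and the 8 tested Notch pathway genes, 6 arterial and 4 venous markers also had 0 called. Darc, the chemokine-binding receptor of venules, came nearest: it was 1.37 ± 0.18 FPKM with construct 7 and 2.68 ± 0.81 with construct 5 (log2 difference -0.61, limma adjusted p = 0.0699). The controls held 2.14 ± 0.35 FPKM of Darc, from which construct 7 differed by -0.40 (limma unadjusted p = 0.0240, adjusted p = 0.431). Its construct 7 libraries lay below those of both other groups. Groups without overlap made up 16.8% of all tested genes against the controls and 25.4% between constructs. The adhesion molecules of activated endothelium, Vcam1 and Icam1, were 0.34 and 0.26 higher with construct 5 on the log2 scale, where the median gene was 0.13 higher. Their limma adjusted p were 0.134 and 0.221. The Vcam1 libraries of construct 5 lay above all 3 controls, and 38.2% of all tested genes had groups without overlap there. After median-ratio scaling their median was 0.21, with 0 at an unadjusted limma p under 0.05. Vcam1 averaged 1.04 FPKM in the controls, near the filter, and Sele and Selp were too low to be tested. Which cells made these transcripts was not tested. Of 10 tested mural markers 0 were called. Rgs5, the pericyte marker, was 77.0 ± 5.3, 73.6 ± 5.6 and 75.1 ± 3.7 FPKM.

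Some marker transcripts of macrophages and fibroblasts passed the test where the endothelial members did not. Of 12 tested macrophage markers 12 lay above zero with construct 5, with a median of 0.81, and 3 were called by limma: Lyz2 rose by 0.90, Lgals3 by 1.36 and Gpnmb by 0.97. Of all tested genes 5.27% were called there. After median-ratio scaling the median of the macrophage markers was 0.67 and 0 of them were called. With construct 7 against the controls 0 of 12 were called, where 0.0556% of all tested genes were. Between constructs 2 were called lower with construct 7, and 1 was called after median-ratio scaling. The summed macrophage markers were 131.1 to 191.2 FPKM in the controls, 215.6 to 386.0 with construct 5 and 104.9 to 165.7 with construct 7. Of 8 fibroblast markers Col1a2 was called higher with construct 5, and Col1a1, Col1a2, Col3a1 and Postn were called lower with construct 7 than with construct 5. After median-ratio scaling these counts were 0 and 2. Of all tested genes 1.22% were called between constructs. With construct 7 against the controls 0 of 8 fibroblast markers were called, where 0.0556% of all tested genes were. All 8 lay below zero there, with a median of -0.44. Of them 3 had an unadjusted limma p under 0.05 (9.47% of all tested genes) and 5 had groups without overlap (16.8%). The adipocyte, Schwann cell and erythroid lists, with 2 tested genes each, had 0 calls in every comparison. Construct 5 replicate 2, in which all 10 members were above their mean, also had the highest sums of macrophage (386.0 FPKM) and fibroblast (752.8 FPKM) markers. It had 68.8 FPKM of adipocyte markers against 2.10 to 16.9 in the other libraries, and 12.1 FPKM of lymphatic endothelial markers against 5.52 to 7.80. The lymphatic sum is mostly Pdpn and Ccl21a, while Prox1 and Lyve1, the defining lymphatic genes, averaged 0.255 and 0.386 FPKM. The part of these cells in the members' values was not tested. Without that library the members' mean difference with construct 5 was -0.09.

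**Figure D5:**
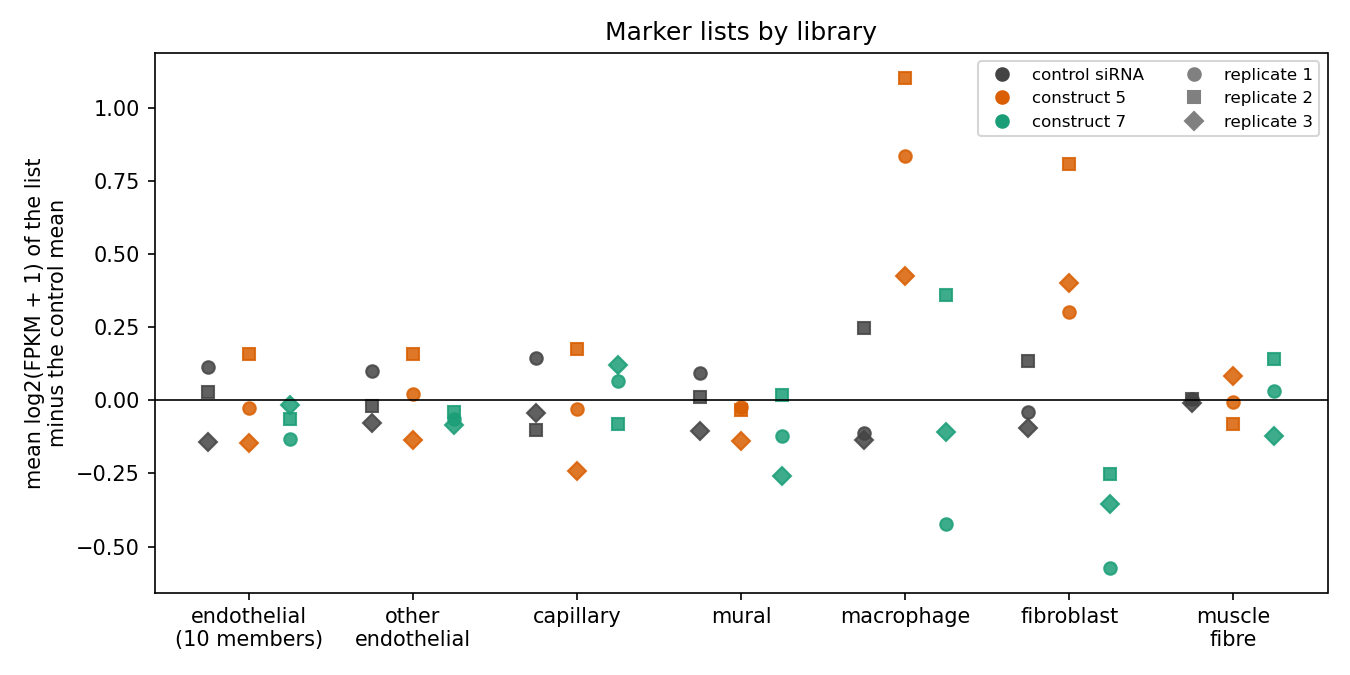
Mean log2(FPKM + 1) of 7 marker lists in each library, relative to the mean of the controls; colour gives the group and the symbol the replicate. The 10 members stay between -0.15 and 0.16 in all libraries, while the macrophage list reaches 1.10 and the fibroblast list 0.81 in construct 5 replicate 2.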

How the data were processed

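RNA-seq of 9 libraries was deposited by the authors as 1 table of FPKM values for 23231 genes; per the submitters' processing notes the tools were BWA, STAR and HTSeq and the genome build was mm9, while versions, annotation and strand are not given in the sources used here. The members and lists were chosen with earlier results of these data known. Groups and replicate numbers came from the sample titles. Genes with a mean of at least 1 FPKM over the 9 libraries (10794) were fitted as log2(FPKM + 1) in 1 model of all groups (limma 3.58.1, R 4.3.3, eBayes with trend), for 4 contrasts, with Benjamini-Hochberg adjustment over all tested genes and a threshold of 0.05. A fold change on this scale understates the change of low genes. For the member with the largest difference, the labels of the libraries were also permuted exactly.

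Depth was found from the steps between low FPKM values with GENCODE M21 gene lengths: 72.7% of 51776 values under 50 reads were whole within 0.1 reads. With fitted lengths, all 9 values of a gene were whole within 0.02 reads for 10736 of 10794 tested genes, the 10 members included. These recovered reads gave the Poisson intervals and the voom test, an alternative chosen after seeing the data; 0 columns belonged to other samples. Named beside the members were Ubr4, list genes called in any contrast (otherwise at most 3 with the smallest p for the mean of both constructs), the 2 most abundant genes of a cell type list, and the 10 genes of at least 5 FPKM most correlated with the mean of the members. Not all list genes so chosen are printed. Alternatives were other pseudocounts, filters, scalings and spread estimates, a replicate block and leaving out each library. The limma step was tested on simulated data. Figures used Python 3.11.15 and matplotlib 3.10.9. Promoters were taken from RefSeq (GRCm38.p6), whose coordinates were not mixed with mm9.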

Additional observations from a re-analysis of the deposited data

How the results depend on the processing

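No member was called by limma in any comparison under any of the alternatives run. Over 219 alternative values with construct 5, 219 with construct 7, 209 for the mean of both and 219 between constructs, the lowest adjusted p were 0.0977, 0.515, 0.274 and 0.0935, and the sign of a member's difference changed in 35, 13, 25 and 23 of them. Emcn was not tested with a filter at 5 FPKM, and the fit on the libraries of a contrast alone was not made for the mean of both. The members' mean difference with construct 5 was -0.14 under median-ratio scaling. Under 2 alternatives chosen after seeing the data it was -0.15 (voom on recovered reads, scaled the same way) and -0.21 (that scaling without construct 5 replicate 2). The latter gave 0.12 between constructs. Leaving out 1 library moved the mean between -0.086 and 0.066 with construct 5, -0.142 and -0.014 with construct 7, -0.109 and 0.019 for both, and -0.137 and 0.015 between constructs.

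The count of all tested genes called, against which the members were read, was less stable, and the cause was not tested. With construct 5 the 569 calls became 316 (pseudocount of 0.1), 5 (no filter), 204 (filter at 5 FPKM), 78 (median-ratio), 86 (quantile normalization), 1028 (equal totals), 246 (libraries of the contrast only), 147 (voom with median-ratio) and 34 (median-ratio without construct 5 replicate 2). They were 1 to 578 with 1 library left out: 4, 4 and 2 without control replicates 1, 2 and 3, 1 and 42 without construct 5 replicates 1 and 2, and 365 and 6 without construct 7 replicates 1 and 3. With construct 7 the 6 calls became 0 (no filter), 2 (libraries of the contrast only) and 0 to 5 with 1 library left out. For the mean of both, the single call became 0 (no filter), 2 (filter at 5 FPKM, equal totals, voom), 3 (median-ratio without construct 5 replicate 2) and 0 to 7 with 1 library left out. Between constructs the 132 calls became 10 (no filter), 48 (filter at 5 FPKM), 79 (median-ratio), 58 (quantile), 23 (libraries of the contrast only), 27 (median-ratio without construct 5 replicate 2) and 3 to 376 with 1 library left out.

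Deviations of same-numbered libraries correlated between -0.364 and 0.313, and those of differently numbered libraries between -0.566 and 0.518. Deviations within a group cancel out, so these ranges do not decide whether replicate numbers pair the libraries. With a replicate block the calls over all genes were 11 with construct 5, 4 for the mean of both and 217 between constructs, and 0 of 10 members were called in any comparison. Depth sets a counting half-width of 2.54% to 10.3% for a single member value. The intervals rest on the spread between libraries, which includes this counting error.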

Other observations

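Transcripts of blood cells were present beside the endothelial ones. Hbb-b1 and Hba-a1, the adult globins of red cells, averaged 99.5 and 74.0 FPKM, and both have near-identical copies between which reads can be split. Of the platelet list only Pf4 was tested, at 6.08 ± 2.0 FPKM in the controls and 8.61 ± 2.9 with construct 5 (limma adjusted p = 0.258). The 8 lymphocyte markers were all below the filter, and their sum was 0.52 to 2.63 FPKM per library.

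Within the members a few pairs varied in opposite directions over the 9 libraries with group means removed. Flt1 and Cldn5 had an r of -0.54 and Pecam1 and Flt1 one of -0.34, the lowest of the 45 pairs.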
